A study of Mus musculus with 16 samples.

Results

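The 9 genes described here are a chosen set that encodes neutral lipid hydrolases of the liver and 1 of their cofactors. They are Pnpla2, Abhd5, Lipe, Mgll, Lipa, Lipc, Ces1d, Ces1f and Ces1g, taken by symbol from a table of 30463 genes, and all 9 have a row with an adjusted p-value. RNA sequencing was done on whole liver of 16 wild-type C57BL/6N mice aged 14 weeks, in 4 groups of 4. On control diet, 1 group had received vehicle and 1 DEN, and the same held for the high fat diet. DEN is diethylnitrosamine, a liver carcinogen that hepatocytes activate, and it or vehicle was injected at 2 weeks of age. The diet switch was made at 6 weeks of age, to a diet labelled 60% high fat. The mice of every group share the strain, the genotype and an injection. The sources used here do not give the sex, and the labels do not say whether livers were pooled. The columns of single libraries could not be matched to mice, so no level per group, no spread between mice and no depth per mouse is given. The values are those of a single comparison made by the authors, whose sides the table does not name. A positive log2 fold change is called higher on the positive side, which is the side where the lipid droplet gene Cidea was higher, at 8.20 ± 0.64 (SE, log2 scale) in the authors' deposited table.

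Triacylglycerol stored in lipid droplets is taken apart in steps. Adipose triglyceride lipase (ATGL, gene Pnpla2) removes the first fatty acid with the help of its cofactor ABHD5, hormone-sensitive lipase (gene Lipe) acts on diacylglycerol, and monoacylglycerol lipase (gene Mgll) releases glycerol. In hepatocytes other routes run beside this one. Lysosomal acid lipase (gene Lipa) degrades droplet and lipoprotein lipid in lysosomes, carboxylesterases of the Ces1 family act in the endoplasmic reticulum, where stored fat is moved towards very low density lipoprotein, and hepatic lipase (gene Lipc) is secreted and works on lipoproteins at the sinusoid surface.

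Lipases of these families share a short run of codons around the catalytic residue, for glycine, any residue, serine, any residue and glycine. It is shown because it separates the 8 enzymes from the cofactor. The 15 coding bases were read 5′ to 3′ from the longest GENCODE M21 coding transcript that holds the known run of each gene, and the codon of the catalytic position is in capitals.
Pnpla2: ggagccTCGgcaggg
Lipe: ggggacAGTgcaggt
Mgll: ggccacTCCatgggc
Lipa: ggtcatTCTcaaggc
Lipc: gggtacAGCctggga
Ces1d: ggagagTCAgcagga
Ces1f: ggagagTCAgcagga
Ces1g: ggcgagTCAgcagga
Abhd5: ggacacAACctggga
The capitals are a serine codon in the 8 enzymes and an asparagine codon in Abhd5, whose protein has no lipase activity of its own and activates ATGL. Each run occurs once in frame in its transcript, with the capital codon at position 47 in Pnpla2, 155 in Abhd5 and 221 in Ces1d, Ces1f and Ces1g, counted from the start codon. In GRCm38 the runs lie at chr7:141455419-141455433 for Pnpla2 and chr9:122368206-122368220 for Abhd5 on the plus strand. On the minus strand they lie at chr7:25383637-25383651 for Lipe, chr19:34508999-34509013 for Lipa and chr9:70818913-70818927 for Lipc. The 3 carboxylesterase runs, also on the minus strand, lie at chr8:93187764-93187778 for Ces1d, chr8:93269995-93270009 for Ces1f and chr8:93328399-93328413 for Ces1g. The run of Mgll is split by an intron and spans chr6:88808136-88809338 on the plus strand. Ces1d and Ces1f hold the same 15 bases. Outside the carboxylesterases, the genes themselves, all protein-coding, span chr7:141455198-141460743 (Pnpla2), chr9:122351608-122381524 (Abhd5), chr7:25379527-25398710 (Lipe), chr6:88724412-88828360 (Mgll), chr19:34492318-34527474 (Lipa) and chr9:70798128-70952226 (Lipc).

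Ces1g was called higher on the positive side, and the other 8 genes did not pass the test. A call means an adjusted p under 0.05, which 6.57% of the 16288 tested genes met in the authors' deposited table, 3.67% as higher on the positive side and 2.9% as higher on the negative side. Against that background the count is 1 of 9 genes called positive and 0 negative. In sign, 7 of the 9 were positive and 2 (Pnpla2 and Lipc) negative, with a median log2 fold change of 0.21, while 49.2% of all tested genes were positive with a median of -0.0044, from the authors' deposited table. At an unadjusted p under 0.05 there were 4 of the 9 (Ces1g, Pnpla2, Lipe and Ces1f), where 19% of all tested genes were below it. The genes were taken for what they encode, and the counts describe them without a test of the set.

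**Figure D1:**
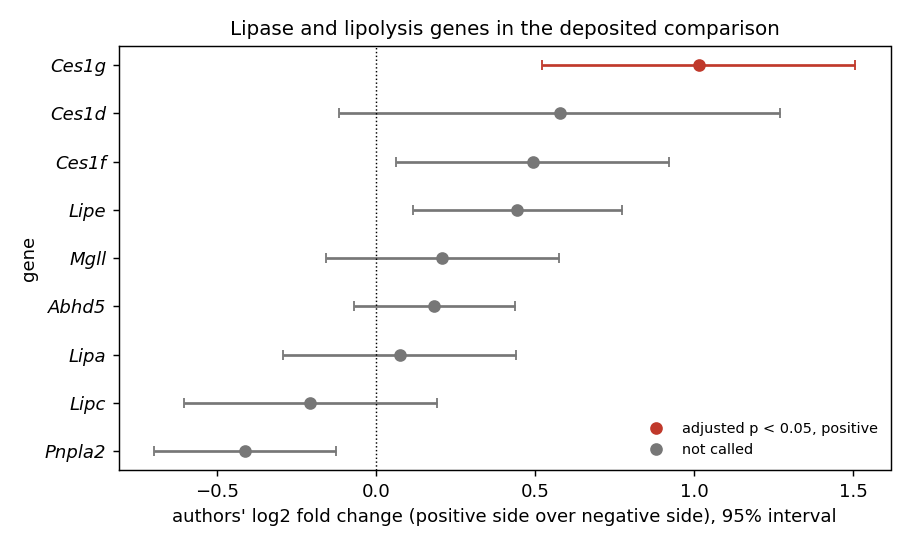
Log2 fold change of each of the 9 genes in the authors' deposited table (x axis, positive over negative side), with points for the estimates and bars for 95% normal intervals from the authors' standard error. Ces1g, in red, is the called gene at 1.02, and Pnpla2 lies lowest at -0.41.

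In the droplet pathway the enzyme of the first step and its cofactor had opposite signs. Pnpla2 was at -0.41 ± 0.15 (SE, log2 scale) in the authors' deposited table, or 1.33-fold lower on the positive side, with a p-value of 0.00473 and an adjusted p of 0.0638. It thus missed the threshold narrowly: at its standard error a difference of 0.43 on the log2 scale would have been called. With a trend on GC content, length and mean count removed from the statistics of the authors' deposited table it was called (adjusted p = 0.0369, against 0.0510 to 0.675 under the other alternatives). Abhd5, the cofactor, was at 0.18 ± 0.13 (SE, log2 scale, adjusted p = 0.466) in the authors' deposited table, and its 95% interval of -0.069 to 0.44 did not overlap that of Pnpla2, -0.70 to -0.13. Both estimates come from the same libraries, and their difference was not tested.

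Lipe, the diacylglycerol hydrolase best known from fat cells, was at 0.45 ± 0.17 (SE, log2 scale, p = 0.00780, adjusted p = 0.0883) in the authors' deposited table. Its 95% interval of 0.12 to 0.77 lay above 0, but the gene was not called after adjustment over all genes. Lipe had the lowest level of the 9 genes, and of the adipocyte markers Adipoq, Plin1 and Retn had mean normalized counts of 0.387, 0.439 and 0.558 in the authors' deposited table, beside 288.2 for Lipe. Cfd, an adipocyte gene as well, had 395.2 there and a log2 fold change of 7.93 ± 0.69 (SE), both from the authors' deposited table. Lep, the fifth marker, had no row. The part of fat cells in the value of Lipe was not tested. Mgll, which acts last and also degrades the endocannabinoid 2-arachidonoylglycerol, was at 0.21 ± 0.19 (SE, log2 scale, adjusted p = 0.602) in the authors' deposited table, with an interval of -0.16 to 0.58.

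The lysosomal and the secreted lipase had the estimates nearest to 0 relative to their errors. Lipa was at 0.075 ± 0.19 (SE, log2 scale, adjusted p = 0.884) in the authors' deposited table, and its interval ran from -0.29 to 0.44. Lipc was at -0.21 ± 0.20 (SE, log2 scale, adjusted p = 0.645) in the authors' deposited table, with an interval of -0.60 to 0.19. Estimates smaller in size than 0.55 for Lipa and 0.60 for Lipc on the log2 scale would not have been called with these errors. These are cuts on the estimate and not limits on the true shift. Lipa is also expressed by macrophages, and all 6 Kupffer cell markers were negative in sign, from -0.76 for Vsig4 to -0.43 for Adgre1, with 1 called (Timd4, adjusted p = 0.0494), in the authors' deposited table. Of all tested genes there, 49.2% were positive in sign and 2.9% were called negative. Of the 6 hepatocyte markers, 5 were negative in sign as well, with 1 called. In whole liver fewer cells of a type and less RNA per cell cannot be told apart, and the part of macrophages in the value of Lipa was not tested.

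The 3 carboxylesterases were all positive in sign, with different certainty. Ces1g, an esterase of the endoplasmic reticulum whose loss in mice raises liver fat, was at 1.02 ± 0.25 (SE, log2 scale) in the authors' deposited table, or 2.02-fold higher on the positive side, with a 95% interval of 1.44 to 2.84-fold and an adjusted p of 0.00278. Its log2 fold change was above that of 98.3% of all tested genes. With every statistic of the authors' deposited table centred on the median and divided by the median absolute deviation over all genes (1.44), Ces1g was not called (adjusted p = 0.253, against 0.00206 to 0.0285 under the other alternatives). Ces1f was at 0.49 ± 0.22 (SE, log2 scale, p = 0.0241, adjusted p = 0.174) in the authors' deposited table, and the gene was not called. Ces1d, the hydrolase linked to lipoprotein assembly, had a larger estimate and the widest error of the 9 genes, at 0.58 ± 0.35 (SE, log2 scale, adjusted p = 0.381) in the authors' deposited table. Its interval of -0.11 to 1.27 held both 0 and the estimate of Ces1g, and a difference of 1.04 (log2) would have been needed for a call. The intervals of Ces1d, Ces1f and Ces1g overlap one another. Over all 36 pairs of the 9 genes, 8 had intervals that did not overlap. Of these, 5 involved Pnpla2 (with Abhd5, Lipe, Ces1d, Ces1f and Ces1g) and the other 3 were Ces1g with Abhd5, Lipa and Lipc. Each of these pairs holds Pnpla2 or Ces1g, the lowest and the highest of the 9 estimates. The share of such pairs among all tested genes was not computed, so the count has no background and is no result about these genes. All estimates come from the same libraries, and no difference between genes was tested.

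**Figure D2:**
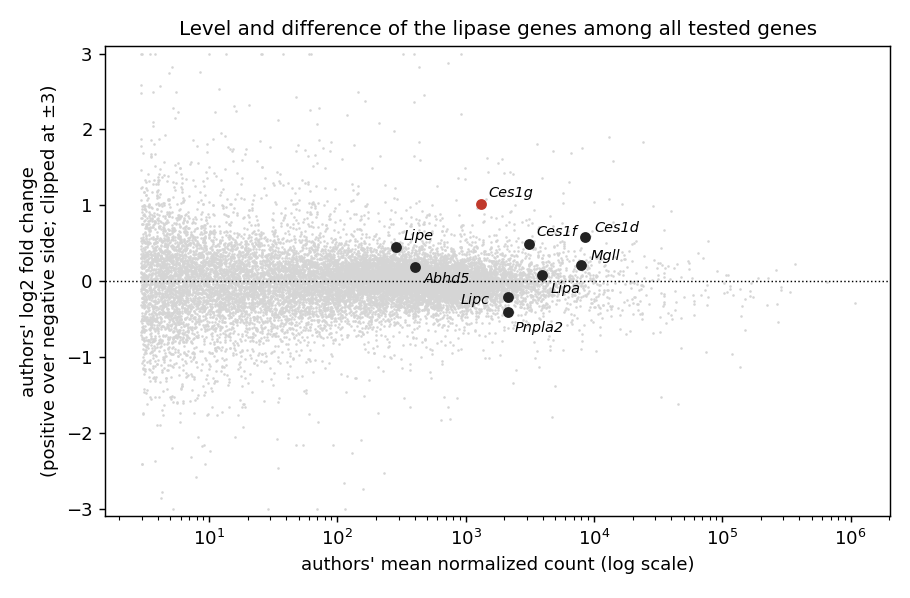
The log2 fold change (y axis, clipped at ±3) against mean normalized count (x axis, log scale) in the authors' deposited table, with all 16288 tested genes in grey and the 9 lipase and lipolysis genes as labelled points (Ces1g, the called gene, in red). The 9 genes are well counted, from 288.2 for Lipe to 8569 for Ces1d.

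Levels differed more between the genes than the comparison changed any of them. Divided by the mean length of the gene's coding transcripts, Ces1d had the highest level at 4276 mean normalized counts per kb, followed by Mgll at 3147, computed from the authors' deposited table. Ces1f (1610), Lipc (1596), Pnpla2 (1441) and Lipa (1327) lay close together on the same scale of counts per kb from the authors' deposited table, and no spread between mice is at hand to order these 4. Ces1g, the called gene, stood lower at 555.4 counts per kb, and Abhd5 (190.5) and Lipe (117.1) were the lowest, from the authors' deposited table. Per kb, Ces1d was thus 7.70 times as abundant as Ces1g and 36.5 times as abundant as Lipe (55.1 times with the longest coding transcript as the length), and Pnpla2 was 7.57 times as abundant as its cofactor. With the longest coding transcript as the length, Pnpla2 stood at 811.5 counts per kb, below Lipa and Lipc, while Ces1d, Mgll and Ces1f kept the first 3 places and Ces1g, Abhd5 and Lipe the last 3. Levels are averages over all libraries of the comparison and do not separate its sides.

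**Figure D3:**
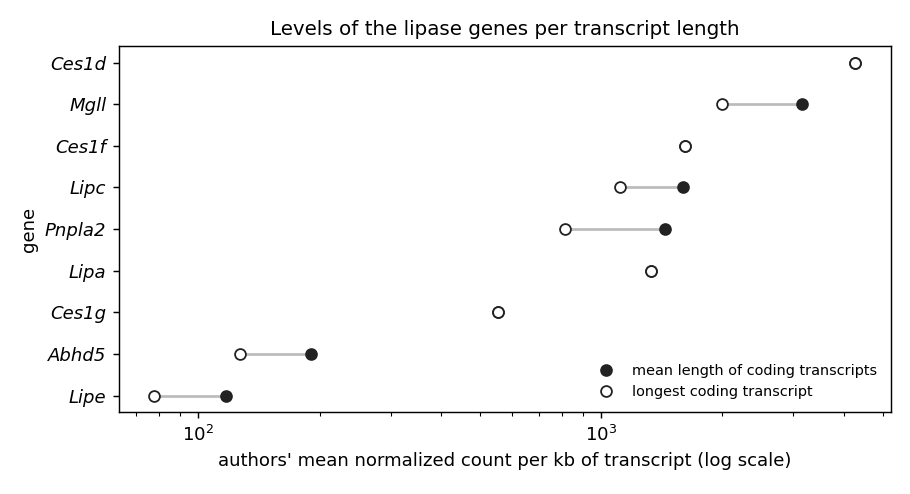
Mean normalized count per kb of transcript (x axis, log scale) for the 9 genes, from the authors' deposited table, with filled points for the mean length of coding transcripts and open points for the longest. Ces1d is highest at 4276 counts per kb and Lipe lowest at 117.1.

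Ces1d, Ces1f and Ces1g are neighbours in a row of 8 Ces1 genes on the minus strand of chromosome 8, within chr8:93020214-93379725 in GRCm38. Ces1d lies at chr8:93166068-93197838, Ces1f at chr8:93256236-93279747 and Ces1g at chr8:93302369-93337308, all protein-coding. The row did not move as a block. Ces1e, which lies between Ces1d and Ces1f, was called positive at 1.08 ± 0.24 (SE, log2 scale, adjusted p = 0.000686) in the authors' deposited table, close to the value of Ces1g. On the other side of Ces1d, Ces1c was called negative at -0.42 ± 0.13 (SE, log2 scale, adjusted p = 0.0294) in the authors' deposited table. Ces1c encodes the esterase secreted into mouse plasma and had the highest level of the Ces family, 20273 mean normalized counts per kb, from the authors' deposited table. Ces1b, the next gene, was also called negative, at -0.57 ± 0.16 (SE, log2 scale, adjusted p = 0.00946) in the authors' deposited table. Ces1a (0.23 ± 0.53, SE, log2 scale) was not called, at a mean normalized count of 3.32, and Ces1h had no adjusted p at 0.408, in the authors' deposited table. In chromosome order, then, Ces1b and Ces1c were negative in sign and Ces1d, Ces1e, Ces1f and Ces1g positive. With Benjamini-Yekutieli adjustment 0 carboxylesterase genes were called negative, and with the scaled statistic 0 were called in either direction.

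**Figure D4:**
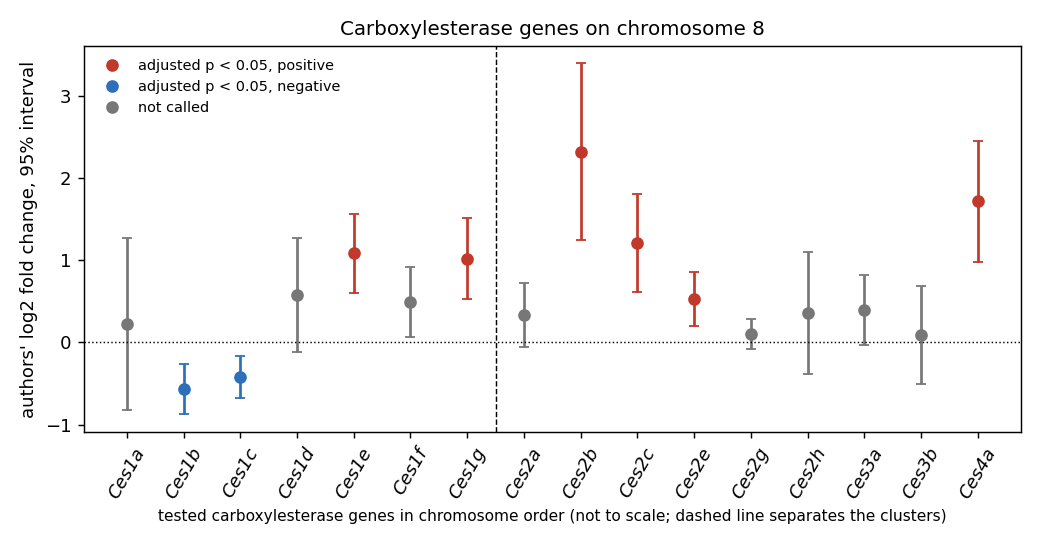
Log2 fold change with 95% interval (y axis) in the authors' deposited table for the 16 tested carboxylesterase genes in chromosome order (x axis, not to scale), with the Ces1 genes left of the dashed line and Ces2 to Ces4 right of it. Ces1b and Ces1c, in blue, are below 0, while Ces1e and Ces1g, in red, are at 1.08 and 1.02.

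The Ces1 genes are close copies, so reads could be shared between them. Of the distinct 50-base stretches in the coding transcripts, 1.67% in Ces1g, 1.60% in Ces1f and 1.28% in Ces1d also occurred in a transcript of another gene, and at 100 bases 0 did in each of the 3. Ces1g shared most with Ces1e, 25 of 2339 stretches, and Ces1c shared 190 of 1855 with Ces1b. The read length and how reads with several matches were treated are unknown from the sources used here. Abhd5 shared 27.7% of its 50-base stretches with A730085K08Rik, an antisense gene with a mean normalized count of 0.277, and Lipe 10.2% with the antisense gene 4732471J01Rik, at 7.32 in the authors' deposited table. Mgll shared 1.15% with the antisense gene Gm26588, at 177.0 in the authors' deposited table and with a log2 fold change of 0.11 ± 0.27 (SE) there. Whether strand was used in counting is not given, so reads in these overlaps cannot be assigned. By position, further genes overlap the spans of Ces1d, Mgll and Lipc. Among them are Gm45909 on the strand of Ces1d (mean normalized count 16.6), Gm44005 on that of Mgll (21.6) and Gm32017 opposite Lipc (14.8), in the authors' deposited table. Pnpla2, Lipa and Lipc shared 0 stretches with other genes.

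Across the wider carboxylesterase family, 7 of the 15 tested genes other than Ces1d, Ces1f and Ces1g were called, 5 positive and 2 negative, and their median log2 fold change was 0.33 in the authors' deposited table. Of all tested genes there, 3.67% were called positive and 2.9% negative. The second row of the family, Ces2 to Ces4 at chr8:104734003-105150109, had 4 of 9 tested genes called positive and 0 negative. Ces2b was at 2.32 ± 0.55 and Ces4a at 1.72 ± 0.38 (SE, log2 scale) in the authors' deposited table, at low mean normalized counts of 20.6 and 88.2. Ces2c, at 1.21 ± 0.30 (SE, log2 scale, authors' deposited table), shared 42.2% of its 50-base stretches, and 299 of its 1871 stretches of 100 bases, with other genes, most with the pseudogene Ces2d-ps, whose mean normalized count was 0.323. Ces2e was at 0.53 ± 0.17 (SE, log2 scale, adjusted p = 0.0309) in the authors' deposited table. The abundant Ces3a (0.40 ± 0.22) and Ces3b (0.093 ± 0.31, SE, log2 scale) were not called, and neither were the related hydrolases Aadac (0.082 ± 0.11), which acts in the endoplasmic reticulum, and Nceh1 (0.18 ± 0.20), in the authors' deposited table. Ces3a and Ces3b share 30.2% and 25.6% of their 50-base stretches with each other. The effect of shared stretches on these values was not tested.

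The promoters of the called gene Ces1g and of Pnpla2, the gene with the lowest log2 fold change, are shown as the sequences at the ends of the range. They run from 250 bases before to 50 after the start site, from RefSeq on GRCm38.p6, read 5′ to 3′ on the gene's strand. Capitals mark matches on either strand to CCAAT, to TATAAA, to the nuclear receptor motif AGGTCA, to the forkhead core GTAAACA and to the E box CACGTG.
Ces1g: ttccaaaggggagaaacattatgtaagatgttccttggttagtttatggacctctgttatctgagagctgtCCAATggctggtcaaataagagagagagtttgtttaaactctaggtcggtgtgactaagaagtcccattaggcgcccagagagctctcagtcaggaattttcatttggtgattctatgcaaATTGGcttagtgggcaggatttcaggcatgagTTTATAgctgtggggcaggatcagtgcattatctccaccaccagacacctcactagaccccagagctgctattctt
Pnpla2: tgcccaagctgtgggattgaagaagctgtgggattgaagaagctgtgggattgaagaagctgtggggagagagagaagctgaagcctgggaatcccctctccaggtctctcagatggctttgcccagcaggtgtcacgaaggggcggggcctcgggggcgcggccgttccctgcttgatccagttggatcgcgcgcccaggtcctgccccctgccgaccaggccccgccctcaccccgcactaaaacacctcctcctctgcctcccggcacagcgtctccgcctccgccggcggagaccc
The Ces1g window is chr8:93337160-93337459 on the minus strand and holds CCAAT at -179 as read on the gene's strand, its reverse complement at -58 and the reverse complement of TATAAA at -26. The Pnpla2 window is chr7:141454938-141455237 on the plus strand and holds none of these letters. Of 32851 RefSeq promoter windows of this length, 37.4% hold CCAAT, 13.6% TATAAA, 16.3% AGGTCA, 3.65% GTAAACA and 7.15% CACGTG. No 2 of these motifs overlap in the Ces1g window. Of the 9 genes, 7 had a promoter entry, all but Ces1d and Ces1f, and of the other 5 the E box stands in Lipe and Mgll, the forkhead core in Lipe and Mgll, AGGTCA in Abhd5 and Lipc, CCAAT in Lipa and Lipc, and TATAAA in Lipa. Lipe, Mgll and Lipc have 2 start sites each, and their matches are pooled over both windows, while the shares above are per window. In Lipe the E box and the forkhead core stand in different windows.

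Genes whose proteins bind ATGL, its cofactor or the droplet surface included several called ones. Of 10 tested genes of this list, 6 were called positive and 0 negative, with a median log2 fold change of 0.71, in the authors' deposited table, beside 3.67% of all tested genes called positive. Cidea, among the 6, defines the positive side, so its sign was fixed in advance. The list was also chosen with earlier results of these data known. With the centred and scaled statistic 2 of the 10 were called, and with Benjamini-Yekutieli adjustment or the trend removed 4 were. For these settings the share of all tested genes was not computed. Hilpda, an inhibitor of ATGL, was called at 1.25 ± 0.40 (SE, log2 scale, adjusted p = 0.0345) in the authors' deposited table. G0s2, the other direct inhibitor, was at 0.61 ± 0.36 (SE, log2 scale, adjusted p = 0.365) in the authors' deposited table and was not called. Of the droplet coat genes, Plin2 was at 0.77 ± 0.25, Plin3 at 0.65 ± 0.17 and Plin4 at 2.21 ± 0.45 (SE, log2 scale, all called), in the authors' deposited table. Plin5, whose protein binds both ATGL and ABHD5, was at 0.054 ± 0.26 (SE, log2 scale, adjusted p = 0.946) in the authors' deposited table. The fusion proteins' genes Cidea and Cidec made up the rest of the called genes, and Cideb (0.14 ± 0.10) and Abhd4 (-0.15 ± 0.084, SE, log2 scale), a relative of Abhd5, were not called in the authors' deposited table.

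Other lipases and patatin family genes showed small differences. Of 15 tested, 2 were called positive and 0 negative, with a median log2 fold change of 0.082 in the authors' deposited table. Beside them, 3.67% of all tested genes were called positive and 2.9% negative. The called genes were the phospholipase genes Ddhd2, whose protein also hydrolyses triacylglycerol in mouse brain, at 0.51 ± 0.15, and Abhd16a at 0.30 ± 0.078 (SE, log2 scale), in the authors' deposited table. Pnpla7, a lysophospholipase gene, was at 0.34 ± 0.12 (SE, log2 scale, adjusted p = 0.0515) in the authors' deposited table, just above the threshold. Pnpla3, a close relative of Pnpla2, had a mean normalized count of 5.10 and stood at -0.58 ± 0.55 (SE, log2 scale, adjusted p = 0.624) in the authors' deposited table. Abhd6, a second monoacylglycerol hydrolase gene, was at 0.37 ± 0.20 (adjusted p = 0.284), Lpl at 0.18 ± 0.21 and the endothelial lipase gene Lipg at 0.037 ± 0.29 (SE, log2 scale), none of them called, in the authors' deposited table.

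The next counts stand beside 3.67% of all tested genes called positive and 2.9% called negative. Among genes that control lipases outside the cell, 2 of 12 were called positive and 0 negative (median -0.091, log2 scale) in the authors' deposited table. They were Angptl8, part of a circulating inhibitor of lipoprotein lipase, at 0.77 ± 0.23, and the proprotein convertase gene Pcsk6 at 0.47 ± 0.079 (SE, log2 scale), in the authors' deposited table. Lmf1, which encodes a chaperone needed by hepatic and lipoprotein lipase, was at 0.31 ± 0.11 (SE, log2 scale, adjusted p = 0.0672) in the authors' deposited table and was not called, beside -0.21 for its client gene Lipc. For lysosome and lipophagy genes, 1 of 16 was called positive and 1 negative (median -0.075), in the authors' deposited table. Npc1, which exports the cholesterol that acid lipase frees, was the negative gene at -0.45 ± 0.12, and Atg7, needed for autophagosomes, the positive one at 0.25 ± 0.077 (SE, log2 scale), in the authors' deposited table.

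Control by hormones was described with the receptor and kinase genes. Of 21 genes of cyclic AMP, protein kinase A and insulin control, 0 were called positive and 2 negative (median -0.10), in the authors' deposited table, where 2.9% of all tested genes were called negative. They were the insulin receptor gene Insr at -0.38 ± 0.12 and the kinase subunit gene Prkacb at -0.19 ± 0.062 (SE, log2 scale), in the authors' deposited table. Both calls were lost, with 0 in the list, under adjustment over every gene with a p-value, Benjamini-Yekutieli, a threshold of 0.01, the scaled statistic and the removed trend. The authors' adjusted p was 0.0378 for Insr and 0.0421 for Prkacb, so the loss at 0.01 follows from these values. The share of all tested genes called under each alternative was not computed. Of 14 transcription factor genes linked to lipase genes, 2 were called positive and 1 negative (median -0.079), beside 3.67% and 2.9% of all tested genes. Pparg was at 1.26 ± 0.25 (SE, log2 scale) in the authors' deposited table and called positive. The others called were Srebf1 at 1.41 ± 0.23 and Ppargc1a at -1.30 ± 0.22 (SE, log2 scale), in the authors' deposited table. In sign, 6 of the 14 were positive and 8 negative. Foxo1, a regulator of Pnpla2 known from cultured cells and mice, was at -0.37 ± 0.18 (SE, log2 scale, adjusted p = 0.231) in the authors' deposited table. It was not called and was named after its value was seen, and a link to the value of Pnpla2 was not tested.

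Calls downstream of lipolysis stand beside 3.67% of all tested genes called positive and 2.9% called negative. Of 12 genes for handling glycerol and fatty acids, 3 were called positive and 0 negative (median 0.31) in the authors' deposited table. They were Fabp1, the fatty acid binding protein of hepatocytes, at 0.92 ± 0.25, Fgf21 at 1.21 ± 0.39 and the glycerol channel gene Aqp7 at 2.82 ± 0.65 (SE, log2 scale), the last at a mean normalized count of 5.18, in the authors' deposited table. Of 10 genes for loading lipid onto very low density lipoprotein, the route that Ces1d feeds, 0 were called positive and 1 negative, Tm6sf2 at -0.77 ± 0.26 (SE, log2 scale, adjusted p = 0.0494), with a median of 0.050, in the authors' deposited table.

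**Figure D5:**
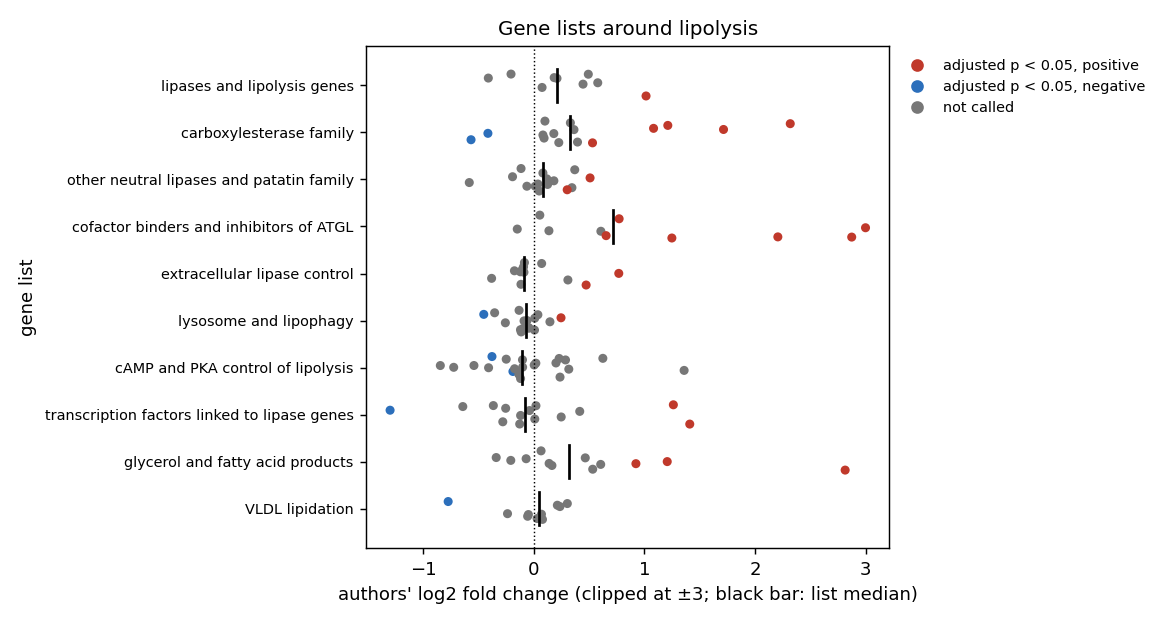
Log2 fold change (x axis, clipped at ±3) of every tested gene in the 9 lipases and lipolysis genes and in 9 lists around them, from the authors' deposited table, with points coloured by call and black bars for list medians (the 9 genes are left out of the other lists). The list of ATGL and cofactor binders also holds droplet coat and fusion genes, Cidea among them. It has the highest median, 0.71, and the 9 genes have one of 0.21.

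The labelled tissue was checked against its markers. Mean normalized counts in the authors' deposited table were 1079857 for the hepatocyte gene Alb and 34531 or more for the other 5 hepatocyte markers, of which Cps1 was called negative. Of the pancreas acinar markers Cpa1 and Cel were at 0.137 and 0.163 mean normalized counts, Cela1 at 209.7 with a log2 fold change of -0.020 ± 0.21 (SE), and Pnlip and Prss1 had no row, in the authors' deposited table.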

How the data were processed

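Liver RNA of 16 mice was sequenced, per the labels, from libraries made with a stranded mRNA kit. FastQC, Trimmomatic, HISAT2, HTSeq 0.11.1 and, for the genome, GRCm38 appear in the submitters' processing notes without roles or settings. The deposited table holds, per the file headers, a mean normalized count per gene (unit signal), the log2 fold change and standard error of the authors, a score (their test statistic) and their p-value before and after adjustment. Its 16 columns of single libraries carry codes that match no label and were used in no step, so the planned comparisons of diet and of DEN were not run, and depth per sample is unknown. Which sides, samples and tool the authors' comparison had is not stated in the sources used here. Checked on the values, the statistic is the fold change over its standard error, and Benjamini-Hochberg adjustment of the p-values over 16288 genes returns the adjusted ones.

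Each interval is the estimate with 95% normal limits, from the authors' standard error. The smallest difference that would have been called is the smallest called statistic, 2.94 in size, times the gene's standard error. No test of a list was made. The genes, the 9 pathway lists and the 4 marker lists were chosen with earlier results of these data known. All 9 genes are named, with every called gene of the lists, uncalled genes of the carboxylesterase, cofactor and other lipase lists, and Cidea. Lmf1, Foxo1 and the markers Vsig4 and Adgre1 were added after their values were seen. Of 168 list genes, 7 had no row. Lengths, positions and shared stretches came from GENCODE M21 on GRCm38, which held 99.9% of tested genes. Steps were run in Python 3.11.15 with pandas 2.3.3, scipy 1.17.1 and statsmodels 0.14.6. The adjustment and intervals were run on simulated data with normal errors of the authors' size. Such data check the code and cannot show whether these errors suit the real libraries.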

Additional observations from a re-analysis of the deposited data

How the results depend on the processing

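The log2 fold changes are those of the authors' deposited table, so alternatives changed the calls and not the estimates. Of the 9 genes, 1 was called, and the count stayed at 1 with the adjustment over every gene with a p-value, with Benjamini-Yekutieli, at mean normalized counts of at least 10 or 100 and at a threshold of 0.01. With the p-values of the authors' deposited table it was 3 at a threshold of 0.10, which adds Pnpla2 and Lipe, 2 after removing a trend on GC content, length and count, which adds Pnpla2 (adjusted p = 0.0369), and 0 with the statistic centred on its median and divided by its median absolute deviation of 1.44 (Ces1g, adjusted p = 0.253). The adjusted p of Ces1g under the other alternatives was 0.00206 to 0.0285, and that of Pnpla2 0.0510 to 0.675; the cause of these changes was not tested. Of the 125 tested list genes other than the 9, 28 were called, 14 with Benjamini-Yekutieli, 17 at a threshold of 0.01 and 6 with the scaled statistic. With adjustment over every gene with a p-value, 19 of 135 list genes were called. Under Benjamini-Yekutieli and under the scaled statistic 0 genes were called in the lysosome, the cyclic AMP and the lipoprotein loading lists. Of all tested genes, 6.57% had an authors' adjusted p under 0.05, and their share under each alternative was not computed. Whether these changes in count are particular to the genes named here is therefore unknown. No paired analysis was possible because the library columns carry no replicate number. The comparisons of diet and DEN per sample, with their alternatives (another normalization, no filter on library counts, replicates left out), were not run because no column could be assigned to a sample.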
